A study of Mus musculus with 16 samples.

Results

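The neuregulin-ERBB and IGF1 growth pathways were followed in RNA sequencing of neonatal mouse ventricles through 9 genes, which are the ligands *Nrg1* and *Hbegf*, the receptors *Erbb2*, *Erbb3* and *Erbb4*, the growth factor *Igf1*, its receptor *Igf1r*, and the IGF binding proteins *Igfbp3* and *Igfbp5*. The genes were chosen by name and matched by symbol to the 51912 gene identifiers of the count table, in which all 9 were found and all 9 passed the filter on low counts. Ventricles of wild type C57BL/6J mice (WT) and of *Lrrc10*-/- mice in a C57BL/6 background (KO) were taken 7 days after sham surgery (SH) or myocardial infarction (MI) on postnatal day 1. Each combination of genotype and surgery had 4 libraries, here called WT SH, WT MI, KO SH and KO MI, and the last of these are numbered 1, 2, 3 and 7. The infarction was made by ligation of the left anterior descending coronary artery, and the tissue was the full ventricle, above and below the ligation. *Lrrc10* is a gene of cardiomyocytes, but the deletion was present in every cell of the KO mice, so the RNA of all cell types in the ventricle came from cells without it.

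NRG1 binds ERBB4 or ERBB3 on the cell surface, and these pair with ERBB2, a receptor with no known ligand of its own. In the heart NRG1 comes largely from endothelial cells and acts on cardiomyocytes, where ERBB4 and ERBB2 are needed for the ventricular wall to form and where the pathway is known for promoting cardiomyocyte division in the newborn. IGF1 binds IGF1R, which relays through the IRS adaptors to PI3K-AKT and to RAS-ERK, and the secreted IGF binding proteins hold IGF1 and set how much of it reaches the receptor.

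The libraries held between 33783874 and 57470159 counts, at which 3 counts, taken as the floor, equal 0.0577 to 0.0858 CPM, counts scaled to a common library size. All levels below are CPM after TMM scaling, and a change is a log2 fold change from one edgeR quasi-likelihood fit to all 16 libraries. A gene was called when its Benjamini-Hochberg adjusted p over the 20159 genes tested was under 0.1 and its log2 fold change was at least 0.5 in size, and only called genes are said to have risen or fallen. *Lrrc10* had 1075 to 1850 counts in the 8 WT libraries and 0 counts in all 8 KO libraries. The labels describe the groups as balanced for sex, but all 4 WT SH libraries read as male from *Xist* and 4 Y-linked genes. KO SH replicates 1 and 2, WT MI replicates 2 and 4 and KO MI replicates 1 and 2 read as female, so each of these 3 groups had 2 female and 2 male libraries. Sex and group are therefore partly confounded in the comparisons with WT SH, and these were also fitted with the sex of the library as a covariate. This moved the log2 fold changes of 7 members by at most 0.0496 and those of *Nrg1* and *Hbegf* by more, as given with these genes, and 0 of the 7 were called. KO MI was uneven as a group. The mean chi-square per gene between 2 libraries of a group was 36.5 to 58.4 for pairs with KO MI replicate 2. It was 19.2 to 33.7 for the other KO MI pairs and 4.46 to 21.1 in the other groups. Mitochondrially encoded genes held 38.1% of the counts in KO MI replicate 2, against 41.4 to 47.8% in the other libraries. The sum of 7 erythroid markers was 354 to 1146 CPM in KO MI and 417 to 731 CPM in the other groups. Skeletal muscle markers were uneven too. The summed level of a list of 10 such genes was 2.62, 74.0, 7.32 and 122 CPM in KO MI replicates 1, 2, 3 and 7, against 2.02 to 13.4 CPM in WT MI and 1.62 to 2.83 CPM in the sham libraries. The labels do not say whether mice shared a litter, and the p-values measure the spread between these libraries.

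Per kilobase of the canonical transcript, *Igfbp5* was the most abundant of the 9 genes in WT SH at 23.5 ± 4.12 CPM per kb (SD, n = 4), followed by *Igf1* at 11.5 ± 1.09 and *Igf1r* at 6.93 ± 0.183 CPM per kb. *Hbegf* was at 4.35 ± 0.515, *Erbb4* at 3.46 ± 0.117 and *Igfbp3* at 3.43 ± 0.592 CPM per kb, and the ranges of *Erbb4* and *Igfbp3* overlapped. *Erbb2* followed at 2.22 ± 0.102, *Erbb3* at 1.101 ± 0.0279 and *Nrg1* at 0.441 ± 0.0458 CPM per kb. *Nrg1* was thus the lowest of the genes per length in WT SH, and it was at 1.51 ± 0.846 CPM per kb in KO MI. With the union of all annotated exons as the length, *Igfbp5*, *Igf1* and *Igf1r* kept their places at the top and *Erbb3* and *Nrg1* theirs at the bottom, while *Hbegf*, at 2.03 ± 0.240 CPM per kb, came below *Erbb4*, *Igfbp3* and *Erbb2*.

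The members called numbered 0 of 9 in KO SH against WT SH, where 5.01% of the genes tested were called, and 1 of 9 in KO MI against WT MI, where 1.73% were. In WT MI against WT SH 0 of 9 were called, with 2.78% of the genes tested, and in KO MI against KO SH 2 of 9 were, with 7.42%. By unadjusted p under 0.05 the members numbered 3 in KO SH against WT SH, where 22.8% of the genes tested passed, and 3 in WT MI against WT SH, where 16.5% did. DESeq2 also called 0 members in both. The median log2 fold change of the members was -0.00 in KO SH against WT SH, 0.19 in KO MI against WT MI, 0.12 in WT MI against WT SH and 0.28 in KO MI against KO SH, and the median over all genes tested lay between -0.01 and 0.01 in each. The called members were *Nrg1*, in both comparisons of KO MI, and *Igfbp3*, in KO MI against KO SH, and all of these were higher, as were 0.57% of the genes tested against WT MI and 5.31% of those against KO SH. KO MI is a side of both, so the calls share libraries. In the interaction, which compares the KO difference post-MI with that post-sham, no member was called by edgeR or DESeq2, 1 had an unadjusted p under 0.05 (*Igfbp3*) where 13.6% of all genes tested did, and 0.0248% of these were called.

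**Figure D1:**
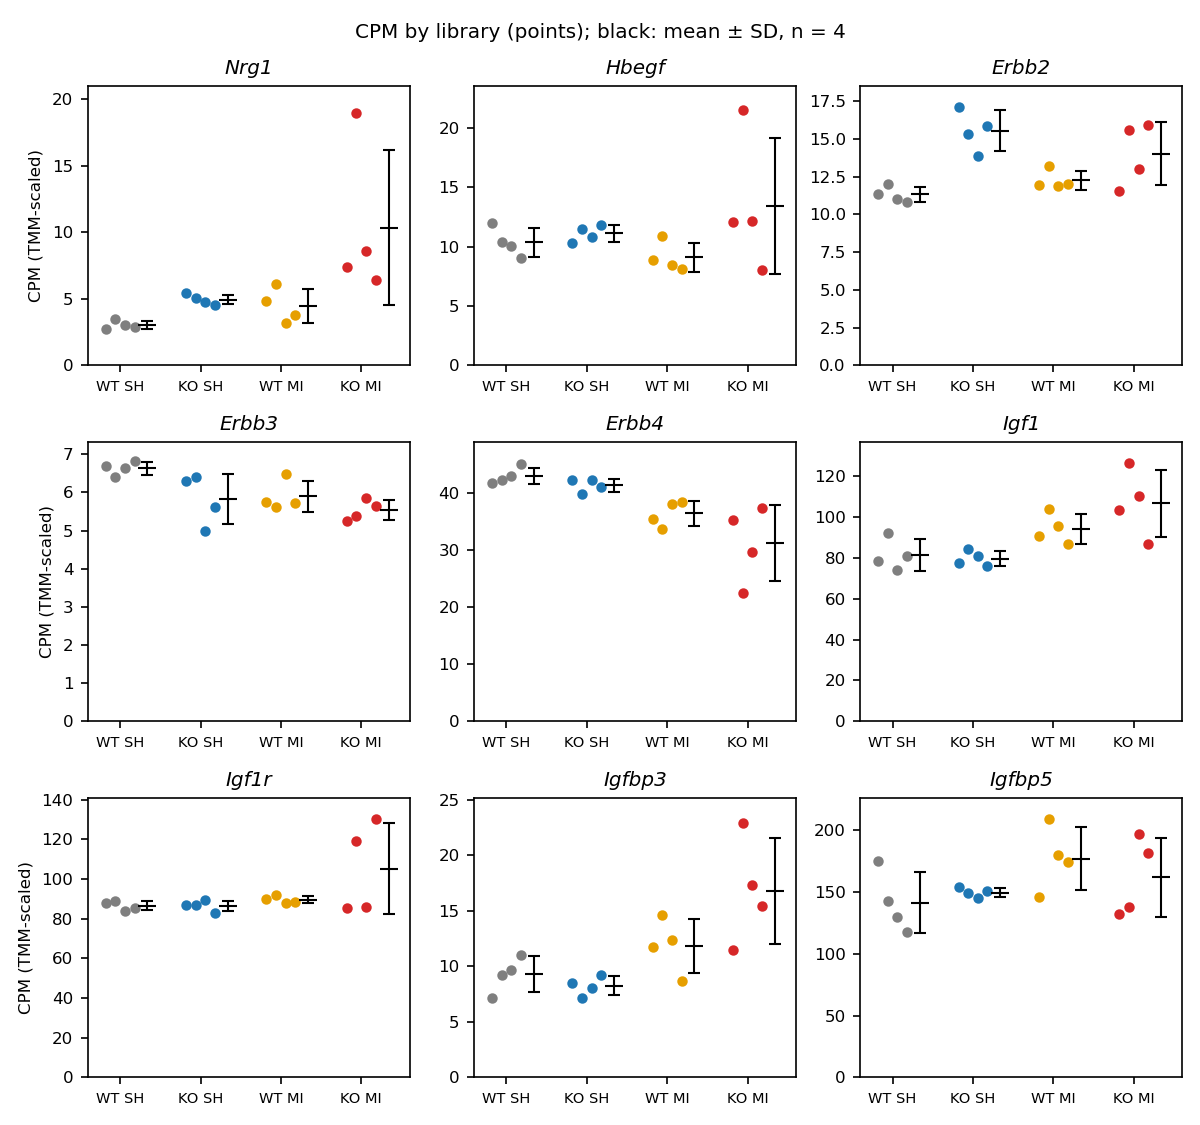
Levels of the 9 genes in CPM (vertical axes, from 0) in each library of the 4 groups, as points, with the mean and SD (n = 4) in black. Nrg1 in KO MI lies between 6.45 and 19.0 CPM, above all 12 other libraries, while Erbb2 is highest in KO SH and Igf1r is high in only 2 of the 4 KO MI libraries.

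**Figure D2:**
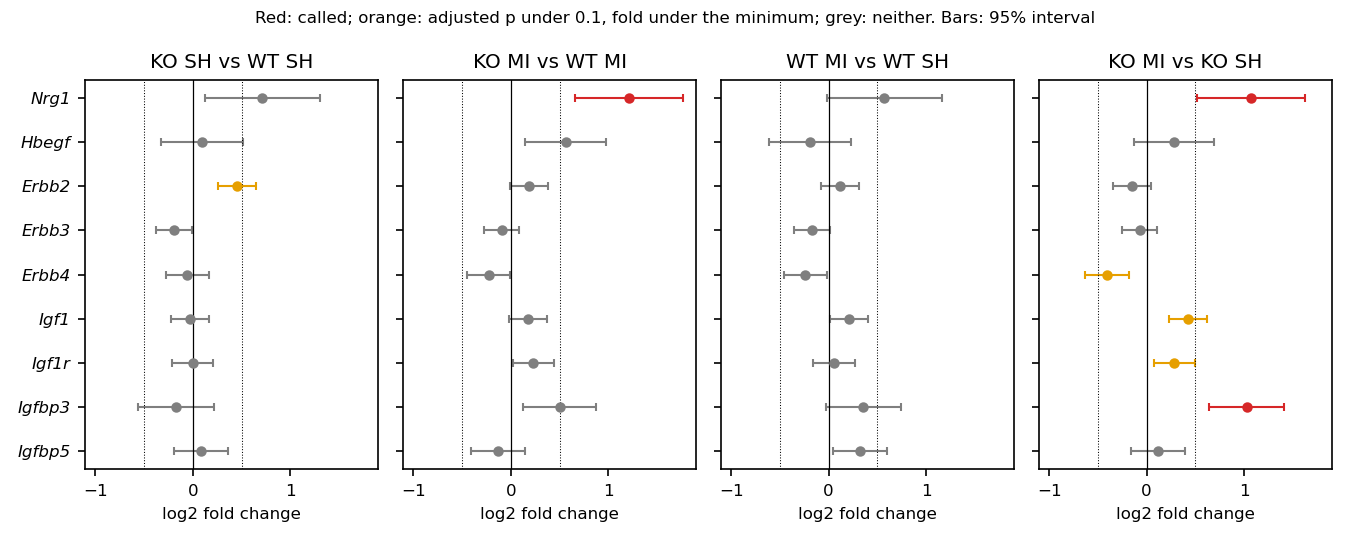
Log2 fold changes of the 9 genes (horizontal axes) in each comparison, with 95% confidence intervals from the edgeR fit and dotted lines at the minimum change of 0.5. Nrg1 is called (red) at 1.21 in KO MI against WT MI and at 1.07 in KO MI against KO SH, and Igfbp3 at 1.03 in the latter; genes in orange had an adjusted p under 0.1 and a smaller change.

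*Nrg1* encodes the ligand neuregulin 1 and spans 32303906 to 33374825 on the minus strand of chromosome 8 (GRCm39), with 40 annotated transcripts whose counts are summed here. The WT SH libraries 1 to 4 were at 2.77, 3.47, 3.03 and 2.85 CPM and the KO SH libraries 1 to 4 at 5.41, 5.08, 4.76 and 4.56 CPM. The WT MI libraries 1 to 4 were at 4.83, 6.13, 3.21 and 3.78 CPM, and KO MI libraries 1, 2, 3 and 7 were at 7.42, 19.0, 8.57 and 6.45 CPM. All 4 KO MI libraries lay above all the others, which made *Nrg1* the 1 member of 9 with no overlap between KO MI and WT MI, against 6.48% of all genes tested, while KO SH lay wholly above WT SH and WT MI overlapped both sham groups. *Nrg1* rose in KO MI against WT MI by a log2 fold change of 1.21 (SE 0.26, 95% interval 0.66 to 1.76, adjusted p = 0.0218, edgeR with Benjamini-Hochberg adjustment). It rose in KO MI against KO SH by 1.07 (SE 0.26, 95% interval 0.52 to 1.62, adjusted p = 0.0152, edgeR with Benjamini-Hochberg adjustment). In order of the mean the groups ran WT SH at 3.03 ± 0.315, WT MI at 4.49 ± 1.28, KO SH at 4.95 ± 0.372 and KO MI at 10.4 ± 5.82 CPM (SD, n = 4), and the 2 middle groups did not differ beyond their spread.

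The size of the *Nrg1* rise depended on KO MI replicate 2, in which the gene had 965 counts, against 241 to 445 in the other 3 libraries of its group. Without it the log2 fold change was 0.74 against WT MI (adjusted p = 0.0311) and 0.60 against KO SH (adjusted p = 0.0395), both from edgeR with Benjamini-Hochberg adjustment. KO MI replicate 7, with the highest skeletal muscle sum, had the lowest *Nrg1* level of its group, and replicate 2, with the next highest sum, had the highest. With replicates 2 and 7 both left out the change against WT MI was 0.82 (adjusted p = 0.0241, edgeR with Benjamini-Hochberg adjustment). The summed level of 8 endothelial markers was 729 to 880 CPM in KO MI and 785 to 883 CPM in WT MI, with none at 0. Of the 8, 0 were called by edgeR or DESeq2 and 1 had an unadjusted p under 0.05, which 12.4% of all genes tested had. The call against WT MI was lost when only the 8 MI libraries entered the fit (log2 fold change 1.21, adjusted p = 0.178, edgeR with Benjamini-Hochberg adjustment), and it held in the other 20 alternatives run. The call against KO SH was lost in 1 of 22, without KO SH replicates 1 and 2 (log2 fold change 1.16, adjusted p = 0.1001, edgeR with Benjamini-Hochberg adjustment). In bulk RNA a change in the number of cells of a type and a change in RNA per cell cannot be told apart.

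In sham hearts *Nrg1* was 0.71 higher in KO SH on the log2 scale (SE 0.28, 95% interval 0.12 to 1.301) and its adjusted p of 0.136 (edgeR, Benjamini-Hochberg adjustment) did not pass. The groups did not overlap, as for 3 of the 9 members in this comparison (*Nrg1*, *Erbb2* and *Erbb3*) and for 18.5% of all genes tested. The call was made with only the 8 sham libraries in the fit (0.71, adjusted p = 0.00113) and without the filter on low counts (0.71, adjusted p = 0.0997), both from edgeR with Benjamini-Hochberg adjustment. With sex as a covariate the difference was 0.49 (adjusted p = 0.293), and without KO SH replicates 1 and 2 it was 0.62 (adjusted p = 0.417), again from edgeR with Benjamini-Hochberg adjustment. Post-MI, WT hearts were 0.57 above WT SH (SE 0.28, adjusted p = 0.320), and 0.34 with sex as a covariate (adjusted p = 0.612), from edgeR with Benjamini-Hochberg adjustment. The KO difference post-MI exceeded that post-sham by 0.50 (SE 0.38, 95% interval -0.31 to 1.305, adjusted p = 0.600, edgeR with Benjamini-Hochberg adjustment), so the data do not separate the 2 KO differences. This excess was 0.03 without KO MI replicate 2 (adjusted p = 0.982, edgeR with Benjamini-Hochberg adjustment).

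*Hbegf* encodes heparin-binding EGF-like growth factor, a ligand of ERBB4 and of the EGF receptor. It was at 10.4 ± 1.23 CPM in WT SH, 11.1 ± 0.700 in KO SH, 9.09 ± 1.23 in WT MI and 13.4 ± 5.72 in KO MI (SD, n = 4). In KO MI the replicates 1, 2, 3 and 7 were at 12.1, 21.5, 12.1 and 7.996 CPM, so that replicate 2 was above every other library of the study and replicate 7 below all 15 others. Set against WT MI, *Hbegf* differed by 0.57 on the log2 scale (SE 0.20, 95% interval 0.15 to 0.98, adjusted p = 0.190, edgeR with Benjamini-Hochberg adjustment). Without KO MI replicate 7 it was 0.74 with an adjusted p of 0.0179, and DESeq2 gave 0.57 with an adjusted p of 0.0905, both Benjamini-Hochberg adjusted and both past the threshold. The difference was 0.24 without KO MI replicate 2 (adjusted p = 0.555, edgeR with Benjamini-Hochberg adjustment). Against KO SH it was 0.28 (SE 0.20), and -0.04 without KO MI replicate 2. In the sham and WT comparisons the log2 fold changes were 0.09 (95% interval -0.32 to 0.51) and -0.19 (95% interval -0.61 to 0.23), and with sex as a covariate they were -0.04 and -0.33.

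Among the ERBB ligands, *Hbegf* made up most of the transcripts per length in every group, with 60.4 ± 2.23% of the summed CPM per kb in WT SH and 55.2 ± 6.85% in KO MI (SD, n = 4). The share of *Nrg1* was 6.16 ± 0.798% in WT SH, 8.99 ± 0.800% in KO SH, 9.26 ± 1.63% in WT MI and 14.4 ± 3.02% in KO MI. The lowest KO MI share of *Nrg1*, 12.2%, was above the highest of any other group, 11.1%. *Nrg3* was at 0 counts in every library.

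*Erbb2* encodes the receptor that pairs with the ligand-bound ERBB4 and ERBB3, and lies on the plus strand of chromosome 11 (98303203 to 98328542). The WT SH libraries 1 to 4 were at 11.4, 12.0, 11.0 and 10.8 CPM and the KO SH libraries 1 to 4 at 17.1, 15.3, 13.9 and 15.8 CPM. The WT MI libraries 1 to 4 were at 11.9, 13.2, 11.9 and 12.0 CPM, and KO MI replicates 1, 2, 3 and 7 were at 11.5, 15.6, 13.0 and 15.9 CPM. All KO SH libraries lay above all WT libraries, and KO MI spanned from the WT to the KO SH levels. The difference of KO SH from WT SH was 0.46 (SE 0.09, 95% interval 0.26 to 0.65) with an adjusted p of 0.00646 (edgeR, Benjamini-Hochberg adjustment), just under the minimum change of 0.5. Genes with an adjusted p under 0.1 at any change made up 12.3% of those tested in this comparison, and *Erbb2* was the only 1 of the 9 members among them.

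The *Erbb2* difference in sham hearts was 0.44 with sex as a covariate (adjusted p = 0.0191) and 0.39 without KO SH replicates 1 and 2 (adjusted p = 0.1205), both from edgeR with Benjamini-Hochberg adjustment. Without KO SH replicate 3, its lowest library, it was 0.51 and the gene was called (adjusted p = 0.00753, edgeR with Benjamini-Hochberg adjustment). Of 8 epicardial and mesothelial markers 5 rose in the same comparison, as did 2.48% of all genes tested. The summed level of the 8 was 17.9 to 23.7 CPM in WT SH and 30.7 to 39.8 CPM in KO SH, with none at 0. *Wt1* went the other way without a call, at 13.3 ± 1.68 CPM in WT SH and 11.3 ± 0.995 CPM in KO SH. *Muc16*, the highest of the list in KO SH, was at 3.98 ± 1.97 and 13.3 ± 2.69 CPM (SD, n = 4). The sum of the 8 markers was 42.6 to 66.4 CPM in WT MI and 28.2 to 91.4 CPM in KO MI. *Erbb2* was at 12.3 ± 0.624 CPM in WT MI and 14.0 ± 2.09 CPM in KO MI (SD, n = 4). The part of these markers' cells in the *Erbb2* difference was not tested. The other *Erbb2* differences were 0.19 in KO MI against WT MI (95% interval -0.00 to 0.38), 0.12 in WT MI against WT SH (95% interval -0.08 to 0.31) and -0.15 in KO MI against KO SH (95% interval -0.34 to 0.04).

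*Erbb3* encodes a receptor whose kinase is nearly inactive and which is known in the heart from Schwann cells and from the early valves. Only *Nrg1* was lower per length in WT SH. *Erbb3* was at 6.64 ± 0.168 CPM in WT SH, 5.83 ± 0.662 in KO SH, 5.90 ± 0.403 in WT MI and 5.53 ± 0.268 in KO MI (SD, n = 4). The WT SH libraries, at 6.41 to 6.82 CPM, were above all KO SH libraries, of which the highest was at 6.40 CPM. The log2 fold change was -0.19 (SE 0.09, adjusted p = 0.199; -0.33 without KO SH replicates 1 and 2) in KO SH against WT SH and -0.17 (SE 0.09, adjusted p = 0.338) in WT MI against WT SH, from edgeR with Benjamini-Hochberg adjustment. *Erbb3* lies 11.5 Mb from *Lrrc10* on chromosome 10.

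*Erbb4* encodes the main neuregulin receptor of cardiomyocytes and was the most abundant of the 4 ERBB receptors per length in WT SH. The WT SH libraries 1 to 4 were at 41.7, 42.3, 42.9 and 45.0 CPM and the KO SH libraries 1 to 4 at 42.2, 39.9, 42.2 and 41.0 CPM. The WT MI libraries 1 to 4 were at 35.5, 33.7, 38.0 and 38.5 CPM, and KO MI replicates 1, 2, 3 and 7 were at 35.2, 22.4, 29.7 and 37.3 CPM. Every MI library was below every sham library, and KO MI replicate 2 was the lowest of all 16. The log2 fold change of KO MI against KO SH was -0.41 (SE 0.11, 95% interval -0.63 to -0.19) with an adjusted p of 0.0196 (edgeR, Benjamini-Hochberg adjustment), under the minimum change. Without KO MI replicate 7 it was -0.51 and the gene was called (adjusted p = 0.00209), and without replicate 2 it was -0.28 (adjusted p = 0.0237), both from edgeR with Benjamini-Hochberg adjustment. In WT MI against WT SH it was -0.24 (SE 0.11, 95% interval -0.46 to -0.02, adjusted p = 0.264, edgeR with Benjamini-Hochberg adjustment), where *Erbb4* was the 1 member of 9 whose groups did not overlap and 12.1% of all genes tested did not.

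The KO and WT levels of *Erbb4* were close in sham hearts, with a log2 difference of -0.06 (95% interval -0.28 to 0.17), and overlapped post-MI, with one of -0.23 (95% interval -0.45 to -0.00, adjusted p = 0.392, edgeR with Benjamini-Hochberg adjustment) that was -0.10 without KO MI replicate 2. The sum of 8 cardiomyocyte markers was 26283 to 29155 CPM in KO MI and 28141 to 29082 CPM in KO SH, with none at 0. Of the 8, 0 were called by edgeR or DESeq2 and 3 had an unadjusted p under 0.05, which 26.2% of all genes tested had. The sum was 29204 to 41218 CPM in WT SH and 27915 to 29607 CPM in WT MI.

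Within the receptor family the share of *Erbb4* in the summed CPM per kb was 43.5 ± 1.43% in WT SH, 39.5 ± 1.85% in KO SH, 37.6 ± 1.89% in WT MI and 32.6 ± 6.08% in KO MI (SD, n = 4). That of *Erbb2* was 27.9 ± 1.32%, 36.1 ± 1.76%, 30.8 ± 1.72% and 35.8 ± 4.96% in the same order. In WT SH *Erbb4* therefore outweighed *Erbb2* in all 4 libraries, with a lowest *Erbb4* share of 42.0% and a highest *Erbb2* share of 29.5%. In KO MI the 2 receptors were at like shares, and their ranges, 25.0 to 39.0% and 31.2 to 42.3%, overlapped. These shares depend on the transcript length used, and with the union of exons those of WT SH were 44.7% for *Erbb4* and 27.6% for *Erbb2*.

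**Figure D3:**
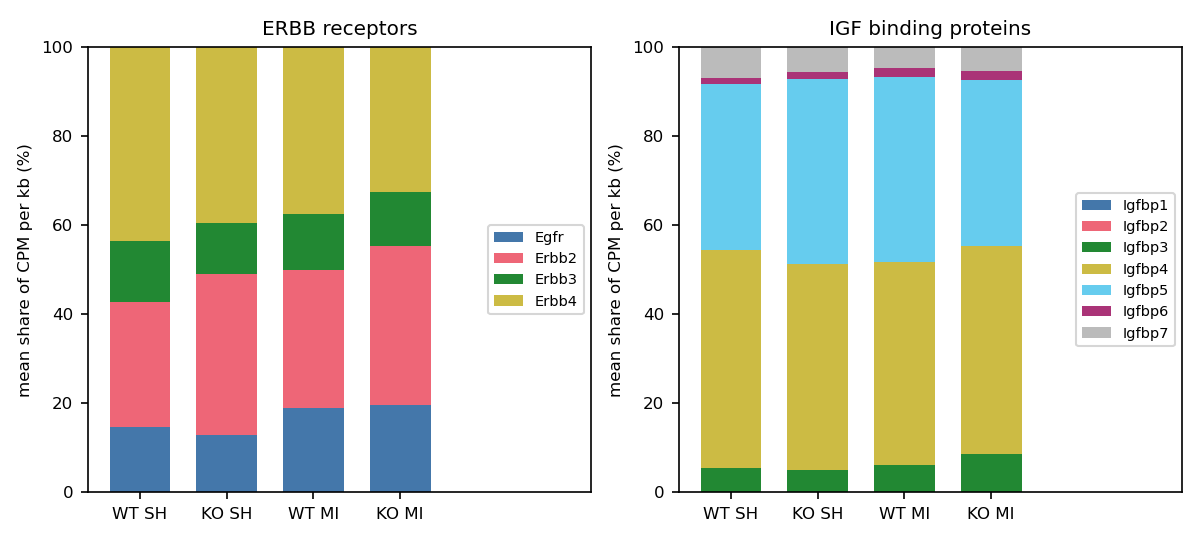
Mean share (%, n = 4) of each ERBB receptor (left) and each IGF binding protein (right) in the summed CPM per kb of its family, by group, as stacked bars that add up to 100%. Erbb4 goes from 43.5% in WT SH to 32.6% in KO MI, while Igfbp4 and Igfbp5 together fill most of the binding protein bars in every group.

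*Igf1* encodes insulin-like growth factor 1 and lies on the plus strand of chromosome 10 (87693642 to 87772904), 29.1 Mb from *Lrrc10*. The WT SH libraries 1 to 4 were at 78.4, 92.1, 73.9 and 80.9 CPM and the KO SH libraries 1 to 4 at 77.4, 84.2, 80.7 and 76.0 CPM. The WT MI libraries 1 to 4 were at 90.5, 104, 95.4 and 86.6 CPM, and KO MI replicates 1, 2, 3 and 7 were at 103, 126, 110 and 86.5 CPM. KO MI lay wholly above KO SH, and WT MI overlapped WT SH in the range of a single WT SH library, replicate 2. The log2 fold change of KO MI against KO SH was 0.42 (SE 0.09, 95% interval 0.23 to 0.62) with an adjusted p of 0.00824 (edgeR, Benjamini-Hochberg adjustment), under the minimum change. Without KO MI replicate 7 it was 0.51 and called (adjusted p = 0.000425, edgeR with Benjamini-Hochberg adjustment). It was 0.21 in WT MI against WT SH (SE 0.09, adjusted p = 0.261), 0.18 in KO MI against WT MI (SE 0.09, adjusted p = 0.456) and -0.03 in KO SH against WT SH (SE 0.09, adjusted p = 0.879), all from edgeR with Benjamini-Hochberg adjustment.

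The related ligand *Igf2* held most of the IGF ligand transcripts per length, so the share of *Igf1* was 11.6 ± 1.36% in WT SH, 11.5 ± 0.504% in KO SH, 13.5 ± 1.23% in WT MI and 14.7 ± 3.85% in KO MI (SD, n = 4). Macrophages and fibroblasts are known sources of IGF1 in the injured heart. Between KO SH and KO MI 7 of 8 macrophage markers rose, as did 5.31% of all genes tested. The sum of the 8 was 40.6 to 48.7 CPM in KO SH and 48.1 to 102 CPM in KO MI, highest in replicate 3. The fibroblast marker sum was 1720 to 1885 CPM in KO SH and 2259 to 2635 CPM in KO MI, with 2 of 8 markers called, both higher (*Col1a1* and *Col1a2*). The part of these cells in the *Igf1* difference was not tested.

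*Igf1r* encodes the receptor tyrosine kinase for IGF1 and is on the plus strand of chromosome 7 (67601518 to 67883416). It was the most even member outside KO MI, at 86.4 ± 2.29 CPM in WT SH, 86.4 ± 2.68 in KO SH and 89.6 ± 1.76 in WT MI (SD, n = 4). In KO MI the replicates 1, 2, 3 and 7 were at 85.6, 119, 85.8 and 130 CPM. Replicates 1 and 3 were thus within the range of the sham libraries, and replicates 2 and 7 above all 14 other libraries. The log2 fold change was 0.28 in KO MI against KO SH (SE 0.10, adjusted p = 0.0771) and 0.23 in KO MI against WT MI (SE 0.10, adjusted p = 0.347), from edgeR with Benjamini-Hochberg adjustment. With KO MI replicates 2 and 7 left out, an alternative chosen after seeing the data, the differences were -0.02 and -0.07. In sham hearts the KO difference was 0.00 with a 95% interval of -0.21 to 0.21.

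Replicates 2 and 7 are the KO MI libraries with the highest skeletal muscle markers, at 74.0 and 122 CPM. Of the 10 genes in the list 7 were tested, of which 6 rose in KO MI against KO SH and 4 in KO MI against WT MI, among them the myosin *Myh8* at 1.59 to 58.5 CPM in KO MI and 0.486 to 0.980 CPM in KO SH. Of all genes tested 5.31% rose in the former comparison and 0.57% in the latter. *Tnnc2* was at 0 in all KO SH libraries and in the lowest KO MI library. Most of the list also stands among the genes the study drew from these libraries, so it is not independent of them. *Igf1r* is expressed in skeletal muscle as well as in the heart, and the part of such RNA in its level was not tested. *Igf1r* also shares 1247 exonic bases with *Pgpep1l* on the opposite strand, which matters only as far as the counting did not use the strand of the reads.

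**Figure D4:**
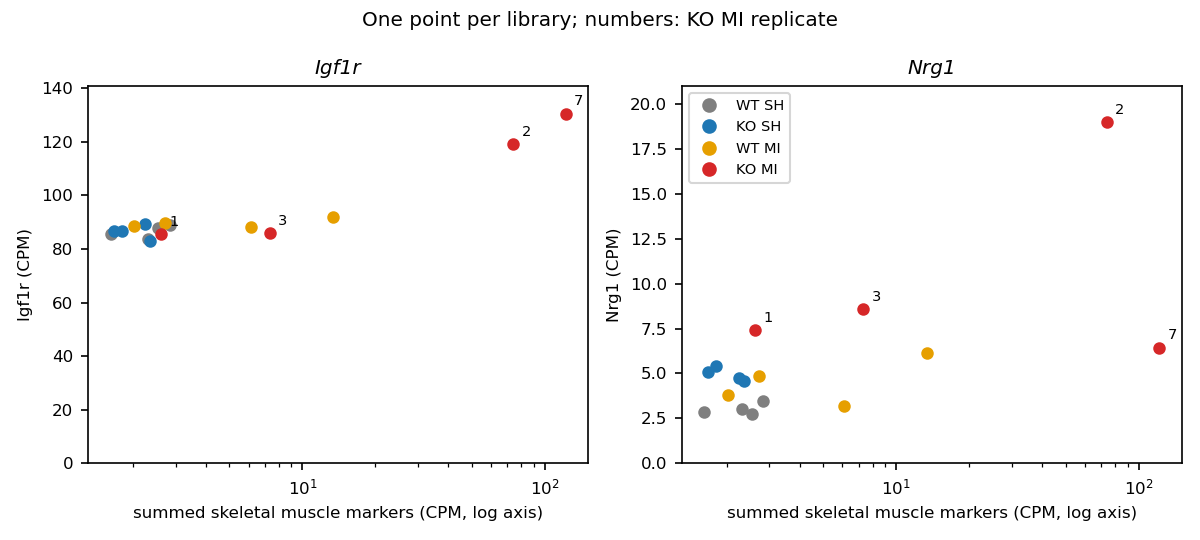
Igf1r (left) and Nrg1 (right) in CPM (vertical axes) against the summed CPM of the skeletal muscle markers (horizontal log axis), 1 point per library, with the KO MI replicate numbers beside their points. Igf1r is high in the 2 KO MI libraries with the most marker RNA, replicates 7 and 2. Of these, replicate 7 has the lowest Nrg1 of KO MI, at 6.45 CPM, and replicate 2 the highest of all libraries, at 19.0 CPM.

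*Igfbp3* encodes a binding protein that carries most of the circulating IGF and is also made locally, and is on the minus strand of chromosome 11 (7156086 to 7164179). The WT SH libraries 1 to 4 were at 7.17, 9.25, 9.69 and 11.0 CPM and the KO SH libraries 1 to 4 at 8.52, 7.15, 8.07 and 9.18 CPM. The WT MI libraries 1 to 4 were at 11.7, 14.6, 12.3 and 8.70 CPM, and KO MI replicates 1, 2, 3 and 7 were at 11.4, 22.9, 17.3 and 15.5 CPM. All KO MI libraries were above all sham libraries, and 3 of the 4 were above all of WT MI. *Igfbp3* rose in KO MI against KO SH by 1.03 on the log2 scale (SE 0.18, 95% interval 0.64 to 1.41, adjusted p = 0.00254, edgeR with Benjamini-Hochberg adjustment). The call held in all 22 alternatives run, with log2 fold changes from 0.79 to 1.17. Together with *Nrg1*, *Igf1* and *Erbb4* it was 1 of 4 members whose groups did not overlap in this comparison, against 14.9% of all genes tested. These 4 and *Igf1r* were the 5 members of 9 with an adjusted p under 0.1 at any size of change, against 17.5% of all genes tested. With only the KO libraries in the fit the 4 stayed under 0.1, *Erbb4* at 0.0920, and *Igf1r* did not, at 0.205. Without KO MI replicate 2 *Igf1r* was at 0.252, all of these from edgeR with Benjamini-Hochberg adjustment.

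Against WT MI the *Igfbp3* difference was 0.50 (SE 0.18, 95% interval 0.13 to 0.88, adjusted p = 0.200, edgeR with Benjamini-Hochberg adjustment). Without KO MI replicate 1, the lowest of its group, it was 0.65 and called (adjusted p = 0.0491, edgeR with Benjamini-Hochberg adjustment), and in no other alternative was it called. With the highest library left out, KO MI replicate 2, it was 0.31 (adjusted p = 0.519, edgeR with Benjamini-Hochberg adjustment). In WT mice the difference of MI from sham was 0.36 (SE 0.18, 95% interval -0.03 to 0.74, adjusted p = 0.347, edgeR with Benjamini-Hochberg adjustment). In sham hearts KO and WT differed by -0.17 (95% interval -0.56 to 0.22). The interaction of *Igfbp3* was 0.67 (SE 0.26, 95% interval 0.13 to 1.21), with an adjusted p of 0.267 from edgeR with Benjamini-Hochberg adjustment, so the KO differences in the MI and sham hearts were not shown to differ after adjustment.

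*Igfbp5* encodes the binding protein that attaches to the extracellular matrix, and is on the minus strand of chromosome 1 (72897091 to 72914043). It was at 141 ± 24.8 CPM in WT SH, 149 ± 3.61 in KO SH, 177 ± 25.6 in WT MI and 162 ± 32.0 in KO MI (SD, n = 4). The ranges of the groups overlapped in every comparison, with WT SH from 118 to 175, WT MI from 146 to 208 and KO MI from 132 to 197 CPM. The log2 fold changes were 0.08 in KO SH against WT SH (95% interval -0.20 to 0.36), -0.13 in KO MI against WT MI (95% interval -0.40 to 0.15), 0.32 in WT MI against WT SH (95% interval 0.05 to 0.60) and 0.12 in KO MI against KO SH (95% interval -0.16 to 0.39). None passed, the lowest adjusted p being 0.215 in WT MI against WT SH (edgeR, Benjamini-Hochberg adjustment). Per length *Igfbp4*, which is no member, and *Igfbp5* were the main binding proteins, with 48.8 ± 2.25% and 37.4 ± 3.31% of the family in WT SH (SD, n = 4). The share of *Igfbp3* was 5.56 ± 1.35% in WT SH, 5.07 ± 0.458% in KO SH, 6.16 ± 0.913% in WT MI and 8.58 ± 2.11% in KO MI.

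The promoters are shown for the members of the RefSeq table with an adjusted p under 0.1 and groups that did not overlap in some comparison, which were *Erbb2*, *Erbb4*, *Igf1* and *Igfbp3*. The table (GRCm38.p6) had an entry for 6 of the 9 members and *Nrg1*, *Hbegf* and *Erbb3* had none. Each line gives the 250 bases before the start of the gene, 5′ to 3′ on its own strand, with motif matches in capitals. The motifs, searched on both strands, were the TATA box with the letters TATAAA, the CCAAT box with these 5 letters, the GC box with the letters GGGCGG, the AP-1 site with the letters TGANTCA, the E-box with the letters CACGTG and the FOXO site with the letters TGTTTAC.
*Erbb2*, chr11:98412234-98412483, plus strand: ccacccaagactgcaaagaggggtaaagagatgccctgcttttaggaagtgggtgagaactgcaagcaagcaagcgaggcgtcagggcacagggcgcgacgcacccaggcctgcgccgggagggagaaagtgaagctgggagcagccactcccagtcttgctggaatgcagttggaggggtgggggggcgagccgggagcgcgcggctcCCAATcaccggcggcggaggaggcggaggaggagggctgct
*Erbb4*, chr1:69108060-69108309, minus strand: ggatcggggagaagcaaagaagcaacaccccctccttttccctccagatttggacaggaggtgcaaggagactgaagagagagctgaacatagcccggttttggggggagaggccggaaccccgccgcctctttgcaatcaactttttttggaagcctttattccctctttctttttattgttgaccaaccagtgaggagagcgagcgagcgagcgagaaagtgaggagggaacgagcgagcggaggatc
*Igf1*, chr10:87860861-87861110, plus strand: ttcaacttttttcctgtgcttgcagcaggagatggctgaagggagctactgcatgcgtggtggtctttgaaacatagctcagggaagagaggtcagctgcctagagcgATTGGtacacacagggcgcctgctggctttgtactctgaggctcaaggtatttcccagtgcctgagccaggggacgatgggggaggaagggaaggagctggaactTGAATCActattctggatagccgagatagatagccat
*Igfbp3*, chr11:7213924-7214173, minus strand: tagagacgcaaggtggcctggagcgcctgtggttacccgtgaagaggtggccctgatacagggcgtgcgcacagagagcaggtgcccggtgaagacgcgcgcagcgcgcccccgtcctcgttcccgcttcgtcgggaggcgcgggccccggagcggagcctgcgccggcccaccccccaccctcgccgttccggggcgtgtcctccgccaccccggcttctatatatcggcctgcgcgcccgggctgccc

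The *Erbb2* window had 1 CCAAT box, 41 bases before the start, and the *Igf1* window had 1 AP-1 match at 37 bases and 1 CCAAT box on the opposite strand at 142 bases. The *Erbb4* and *Igfbp3* windows held none of the 6 motifs in the letters searched, and variant forms of these motifs were not searched. Of the 32851 promoters in the table, 33.85% held a CCAAT box, 32.74% a GC box, 12.37% a TATA box, 6.749% an AP-1 match, 6.021% an E-box and 3.166% a FOXO match, and none of these motifs overlaps another in letters. GC content was 66% for *Erbb2*, 54% for *Erbb4*, 52.8% for *Igf1* and 73.2% for *Igfbp3*, with a median of 52.4% over the table. No other window could share a searched motif with that of *Erbb4* or *Igfbp3*, since these held none.

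Around the members, 9 lists of pathway genes with 99 genes tested held 0 to 5 called genes in a comparison by edgeR. There were 2 in KO SH against WT SH, where 5.01% of all genes tested were called. In WT MI against WT SH there were 2, with 2.78%, and in KO MI against KO SH 5, with 7.42%. In KO MI against WT MI there were 0, with 1.73%. In none of these was the called share of the lists above that of all genes tested. In the interaction edgeR called 0 of the 99 and DESeq2 called 4, which were *Dusp5*, *Hras*, *Igfbp7* and *Irs2*. DESeq2 called 289 of the 20159 genes tested there. In KO SH against WT SH, *Irs2* of the 13 receptor adaptors tested and *Dusp5* of the 10 ERK feedback and output genes fell, and no listed gene rose. The same 2 genes fell in WT MI against WT SH, which shares the WT SH libraries with the former comparison. *Ereg* and *Btc* of 8 other ERBB ligands and receptor tested, *Pappa* and *Stc1* of 9 other IGF binding proteins and proteases tested and *Dusp4* of the ERK feedback genes rose in KO MI against KO SH, and none fell. In KO MI against WT MI 0 of the 99 genes tested in the 9 lists were called by edgeR or DESeq2, and 20 had an unadjusted p under 0.05, which 12.4% of all genes tested had. The lists of the PI3K-AKT-MTOR relay (21 genes), the RAS-RAF-ERK relay (12), FOXO factors and FOXO-induced genes (10), ligand shedding and receptor brakes (13) and the other IGF ligands and receptors (3 tested) had 0 called genes in these 4 comparisons by edgeR, with 8 of their 59 genes (in KO MI against WT MI) to 20 (in KO MI against KO SH, where 26.2% of all genes tested passed) at an unadjusted p under 0.05. DESeq2 called 1, in KO SH against WT SH, which was *Hras*, a RAS protein named here after its values were seen, at 18.3 ± 3.90 CPM in WT SH and 13.0 ± 0.732 in KO SH (SD, n = 4). Their median log2 fold changes lay between -0.21 (the FOXO list in KO MI against KO SH) and 0.09 (the RAS-RAF-ERK list in the same comparison).

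*Irs2* encodes the adaptor that carries signals from the IGF1 and insulin receptors to PI3K. It was at 64.0 ± 11.0 CPM in WT SH, 18.2 ± 4.71 in KO SH, 22.2 ± 3.89 in WT MI and 14.3 ± 4.52 in KO MI (SD, n = 4). The lowest WT SH library, at 52.8 CPM, was above the highest of any other group, at 27.9 CPM. The log2 fold change was -1.82 (SE 0.20, adjusted p = 3.16e-05) in KO SH and -1.53 (SE 0.20, adjusted p = 0.000558) in WT MI, both against WT SH, from edgeR with Benjamini-Hochberg adjustment. These calls held in all 21 and 20 alternatives run, sex as a covariate among them. In KO MI it was -0.64 against WT MI (adjusted p = 0.135) and -0.35 against KO SH (adjusted p = 0.295), and the interaction was 1.18 (SE 0.28, adjusted p = 0.150), all from edgeR with Benjamini-Hochberg adjustment. DESeq2 called *Irs2* in the interaction, which edgeR did not. The related adaptor *Irs1* was not called in any comparison.

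*Dusp5* encodes a nuclear phosphatase of ERK that ERK signaling itself induces. It was at 11.1 ± 1.44 CPM in WT SH, 5.42 ± 0.223 in KO SH, 7.66 ± 0.473 in WT MI and 5.64 ± 0.815 in KO MI (SD, n = 4), and again every WT SH library was above all others. Its log2 fold change was -1.04 (SE 0.11, adjusted p = 1.15e-05) in KO SH against WT SH and -0.54 (SE 0.10, adjusted p = 0.00901) in WT MI against WT SH, from edgeR with Benjamini-Hochberg adjustment. The call in WT MI was lost without WT SH replicate 1, at -0.45 (adjusted p = 0.0386), and without WT MI replicate 2, at -0.50 before rounding just under the minimum (adjusted p = 0.0436), both from edgeR with Benjamini-Hochberg adjustment. Post-MI the KO difference of -0.44 (adjusted p = 0.0362, edgeR with Benjamini-Hochberg adjustment) was under the minimum change. In the interaction *Dusp5* was called by DESeq2 and not by edgeR.

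The genes of the 9 lists that rose in KO MI against KO SH were of low level. In KO MI against WT MI none of them was called by edgeR or DESeq2. *Pappa*, a protease that cleaves IGF binding proteins and so frees IGF, went from 2.73 ± 0.249 to 6.49 ± 3.04 CPM (SD, n = 4; log2 fold change 1.24, SE 0.30, adjusted p = 0.0132, edgeR with Benjamini-Hochberg adjustment), with KO MI libraries from 2.44 to 9.81 CPM that overlapped KO SH. *Stc1*, an inhibitor of that protease, was at 2.26 ± 0.279 and 3.32 ± 1.05 CPM (0.57, SE 0.19, adjusted p = 0.0637, edgeR with Benjamini-Hochberg adjustment). *Ereg*, an EGF receptor and ERBB4 ligand, was at 0.0972 ± 0.0676 and 0.444 ± 0.323 CPM, close to the floor in KO SH (2.19, SE 0.59, adjusted p = 0.0236, edgeR with Benjamini-Hochberg adjustment). *Btc*, another such ligand, was at 1.39 ± 0.163 and 2.15 ± 0.796 CPM (0.63, SE 0.21, adjusted p = 0.0611, edgeR with Benjamini-Hochberg adjustment), and *Dusp4*, an ERK phosphatase, at 2.09 ± 0.329 and 3.13 ± 1.09 CPM (0.59, SE 0.20, adjusted p = 0.0657, edgeR with Benjamini-Hochberg adjustment). Without KO MI replicate 2 the calls of *Ereg* (1.53, adjusted p = 0.128), *Btc* (0.35, adjusted p = 0.293), *Stc1* (0.41, adjusted p = 0.242) and *Dusp4* (0.32, adjusted p = 0.310) were lost, by edgeR with Benjamini-Hochberg adjustment. The call of *Pappa* was lost without replicates 2 and 7 together (0.79, adjusted p = 0.123) and without KO SH replicates 1 and 2 (1.15, adjusted p = 0.140), from edgeR with Benjamini-Hochberg adjustment. *Btc*, *Stc1* and *Dusp4* each lost the call in 8 of the 22 alternatives.

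**Figure D5:**
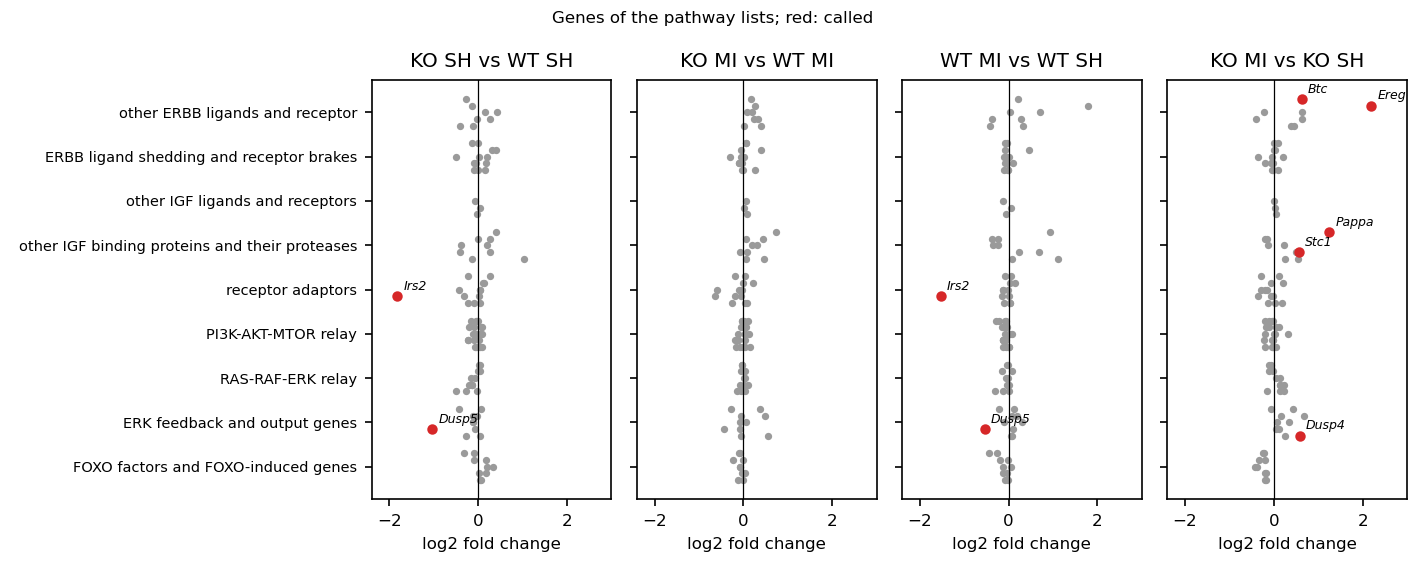
Log2 fold changes (horizontal axes) of the tested genes of the 9 pathway lists (rows), in each comparison, with called genes in red and named. Irs2 at -1.82 and Dusp5 at -1.04 stand out in KO SH against WT SH, and the PI3K-AKT-MTOR relay genes lie between -0.28 and 0.31 in the 4 panels and the RAS-RAF-ERK relay genes between -0.50 and 0.23.

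The genes with patterns most like each member over the 16 libraries were found by the mean absolute difference of z-scores of log2 CPM, over 9060 genes with a mean of at least 5 CPM. *Nrg1* was most like *Rasl11b* (mean difference 0.269), which was at 10.5 CPM in WT SH, 14.1 in KO SH, 14.9 in WT MI and 23.3 in KO MI, followed by *Fuca2* and *Zfp970*. *Igf1* was most like *Itgav* (0.271), an integrin subunit, with *Lox*, the collagen cross-linking enzyme, next at 15.9, 13.8, 30.6 and 41.7 CPM in the same order of groups. *Igf1r* was most like *Neb* (0.330) and *Myh8* (0.345), which encode proteins of the skeletal muscle sarcomere and of which *Myh8* is in the marker list above. *Myh8* passed the limit on mean level only through KO MI, at 26.4 CPM there. It was at 0.897 CPM in WT SH, 0.681 in KO SH and 2.47 in WT MI, so its likeness repeats the KO MI levels. *Erbb4* was closest to *Herpud1* (0.207), *Hbegf* to *Prkag3* (0.237), *Igfbp3* to *Nptxr* (0.247) and *Erbb2* to *Efna5* (0.311). *Erbb3* and *Igfbp5* had no gene as close, with *Huwe1* at 0.503 and *Rnf145* at 0.421 as the nearest.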

How the data were processed

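RNA from the ventricles of 16 mice was sequenced after ribosomal depletion with a stranded total RNA kit, in read pairs of 150 bases. The authors deposited expected counts per gene from RSEM, as whole numbers without normalization, for 51912 identifiers. The sources differ on earlier steps: the paper's methods name Skewer and STAR, while the submitters' processing notes name cutadapt (version 3.4), HISAT2 (version 2.2.1) and RSEM (version 1.1.17), both with GRCm39. The annotation release is not given in the sources used here. GENCODE M39 matched 47772 identifiers and gave symbols and positions. RSEM divides reads that fit several genes, which makes counts of close paralogs uncertain.

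Genes whose counts summed to 10 or more in every group were tested with edgeR (version 4.0.16, R version 4.3.3), TMM normalization and the two-sided quasi-likelihood F-test, one coefficient per group over all 16 libraries. The paper used DESeq2, which was run (version 1.42.0) as an alternative. Intervals are at 95%. SE is the log2 fold change over the root of F. CPM used TMM-scaled library sizes, and likeness used log2 CPM with a prior count of 2. Floors cover counting error only. The analysis was tested on simulated data. Members, gene lists and markers were chosen with earlier results of these data known. The Schwann cell marker list as a whole is not reported here. Named genes were the 9 members, called genes of the pathway lists (at most 4 per list and comparison), the markers beside a result and the 3 genes most like each member. Alternatives were other normalizations and filters, a robust fit, only the groups compared, an adjusted p under 0.05, sex as a covariate, no minimum change, a block for the replicate number and each library left out. Leaving out KO MI replicates 2 and 7, or KO SH replicates 1 and 2, was added after seeing the data.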

Additional observations from a re-analysis of the deposited data

Results flagged for a closer look

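In groups of 4 libraries, a library was singled out when its gap to the nearest of the others, divided by the range of the group, was above Dixon's 95% critical value. Of the 36 groups of values of the 9 members, 3 had such a library, and chance alone gives about 1 in 20. *Nrg1* in KO MI replicate 2, at 19.0 CPM against 6.45 to 8.57 CPM in the other 3 libraries, had a ratio of 0.8304. *Erbb2* in WT MI replicate 2, at 13.2 CPM against 11.9 to 12.0 CPM, had a ratio of 0.8805. *Erbb3* in WT MI replicate 3, at 6.50 CPM against 5.61 to 5.76 CPM, had a ratio of 0.8367.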

How the results depend on the processing

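Of the alternatives for single genes, 1133 kept direction and side of the threshold, 32 lost a call, 15 gained one and 17 changed sign. Members called in KO SH against WT SH went from 0 to 1 without the filter and with only the groups compared (*Nrg1*) and without a minimum change (*Erbb2*), and were 0 to 1 with a library left out. In KO MI against WT MI they went from 1 to 2 with DESeq2 and to 0 with only the groups compared, and were 1 to 2 with a library left out. In KO MI against KO SH they went from 2 to 5 without a minimum change and to 1 without KO SH replicates 1 and 2, and were 2 to 4 with a library left out.

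Genes called overall moved in KO SH against WT SH from 1010 to 2486 without a minimum change and 341 without KO SH replicates 1 and 2, with 661 to 1217 when a library was left out. In KO MI against WT MI they moved from 348 to 192 with only the groups compared and 619 without a minimum change, with 227 to 575 when a library was left out. In WT MI against WT SH they moved from 560 to 1071 without a minimum change, with 283 to 632 when a library was left out. In KO MI against KO SH they moved from 1495 to 3536 without a minimum change and 680 without KO SH replicates 1 and 2, with 885 to 2180 when a library was left out. In the interaction they moved from 5 to 289 with DESeq2, 39 without the filter, 8 with a robust fit and also with sex as a covariate, 3 at an adjusted p under 0.05 and 369 without KO MI replicates 2 and 7, with 2 to 840 when a library was left out. The cause was not tested, apart from the minimum change, whose removal adds genes by construction.

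Signs changed as follows. In KO SH against WT SH, *Igf1r* was 0.0009 without mitochondrially encoded genes, 0.0019 without the filter, 0.0048 with at least 10 counts in every library, 0.0006 with only the groups compared, 0.0071 with sex as a covariate, and between -0.019 and 0.0182 with a library left out, *Hbegf* was -0.0351 with sex as a covariate and *Igf1* was between -0.0726 and 0.0348 with a library left out. Without KO MI replicates 2 and 7, *Erbb2* was -0.0064 and *Igf1r* -0.0731 against WT MI, and *Igf1r* was -0.0206 against KO SH and -0.0801 in the interaction. In KO MI against KO SH, *Erbb3* was 0.0686 without KO SH replicates 1 and 2, and *Hbegf* was between -0.0436 and 0.455 with a library left out.

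Replicate numbers were tried as a block. The 21 pairs of same-numbered libraries had correlations from -0.131 to 0.175 (median 0.00956), with 3 over 0.1. Such low values do not settle whether same-numbered libraries shared a litter, which the labels do not say. With the replicate block the members called were 1 in KO SH against WT SH (*Nrg1*, 0.73, adjusted p = 0.0288, edgeR with Benjamini-Hochberg adjustment), 2 in KO MI against WT MI, *Hbegf* added (0.69, adjusted p = 0.0180, edgeR with Benjamini-Hochberg adjustment), and 3 in KO MI against KO SH, *Erbb4* added (-0.50, adjusted p = 0.00234, edgeR with Benjamini-Hochberg adjustment). Under the block *Igf1r* in KO SH against WT SH was 0.0006, and 689 genes were called in the interaction. KO MI replicate 7 was the only library of its number, so the block took up its level and it did not inform the KO MI differences. With this library left out instead, *Hbegf* was 0.74 against WT MI and *Erbb4* -0.51 against KO SH, and 840 genes were called in the interaction. At the depth of these libraries *Ereg*, at 0.0262 CPM in its lowest KO SH library, is under the floor of 3 counts, and its change has no firm size.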
